A study of Mus musculus with 4 samples.

Results

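TOP2B cleavage complexes were examined at 9 genes for transcription factors of cortical projection neurons, Bcl11b, Bcl11a, Cux1, Cux2, Mef2c, Foxp1, Sox5, Nfib and Tbr1. A peak was assigned to a gene when its summit, the base of highest fragment pileup, lay in the gene's span in mouse build GRCm38 or within 50 kb of either end. By this rule 68 of the 35505 peaks on the 19 autosomes and X (0.192%) belonged to the 9 genes, 49 inside the genes and 19 in the flanks. The neurons were dissociated from the cortex of Swiss-Webster mouse embryos at day 16, were wild-type (WT) by label, and received 50 µM etoposide for 30 min before they were collected. The 2 ChIP libraries and the 2 input libraries all carry the drug, and no untreated library was analysed here. The values are those of 1 peak list with no column for any library, so no value has a standard deviation or an n, no test was made, and depth is unknown. Such a list holds no expression values, so the labelled cell type was not checked against its markers. Intervals on counts are exact 95% Poisson intervals and cover counting error only.

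TOP2B is the type II topoisomerase of postmitotic neurons. It passes one DNA duplex through a transient double-strand cut in another, and etoposide holds the enzyme covalently on the cut ends, so that the complex can be recovered with its DNA. Projection neurons, the glutamatergic cells that send axons out of their cortical area, take their layer and target identity from a network of transcription factors that repress one another. Cux1 and Cux2 mark upper-layer neurons, Bcl11b marks neurons projecting to the brainstem and spinal cord, and Tbr1 marks corticothalamic neurons. Several of these factor genes are long, and long neuronal genes are known to need topoisomerase activity for their transcription.

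Promoter sequences are shown for Foxp1, the 1 member with a peak that reaches into the promoter window of a tabulated transcription start. RefSeq promoter windows of GRCm38.p6, 250 bases before to 50 from the start, were tabulated for 8 of the 9 genes, 13 windows in all. Of these, 1 (7.69%) was overlapped by a peak interval, beside 1.23% of the 32619 windows of all genes. The overlapped window belongs to a start inside Foxp1, on the minus strand at chr6:99266466-99266765, and the 29 bases under the peak are in capitals. The window of the most upstream start of the 3 tabulated for Foxp1, chr6:99520944-99521243, and that of its most downstream start, chr6:99028249-99028548, held no peak and are in lower case throughout. All are written 5′ to 3′ on the strand of the gene.
Foxp1 internal start: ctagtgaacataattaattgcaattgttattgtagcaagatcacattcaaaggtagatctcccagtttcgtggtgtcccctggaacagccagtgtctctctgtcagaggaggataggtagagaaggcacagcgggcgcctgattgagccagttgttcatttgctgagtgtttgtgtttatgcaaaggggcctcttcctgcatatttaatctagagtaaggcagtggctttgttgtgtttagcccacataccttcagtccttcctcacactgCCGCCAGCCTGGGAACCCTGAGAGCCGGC
Foxp1 most upstream start: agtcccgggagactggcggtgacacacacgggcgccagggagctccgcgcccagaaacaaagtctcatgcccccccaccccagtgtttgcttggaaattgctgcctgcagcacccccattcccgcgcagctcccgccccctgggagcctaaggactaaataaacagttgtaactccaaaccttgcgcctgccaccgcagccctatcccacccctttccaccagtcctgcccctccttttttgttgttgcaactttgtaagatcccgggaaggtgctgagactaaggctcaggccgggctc
Foxp1 most downstream start: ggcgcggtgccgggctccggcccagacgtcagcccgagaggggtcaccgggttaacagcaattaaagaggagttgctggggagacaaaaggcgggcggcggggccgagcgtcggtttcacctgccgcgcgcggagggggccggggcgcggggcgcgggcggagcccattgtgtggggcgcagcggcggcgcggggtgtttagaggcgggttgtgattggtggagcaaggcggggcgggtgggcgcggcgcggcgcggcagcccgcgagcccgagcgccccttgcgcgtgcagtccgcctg
The internal window had a GC content of 48.7% with 5 CG dinucleotides. The most upstream window had 60.3% GC with 13 CG, and the most downstream window 75.3% GC with 44 CG. Of the 3 windows, the one with a peak was thus the poorest in GC and CG. Over the 13 member windows GC content ran from 35.7% to 80.3% with a median of 48.7%, and over all tabulated windows the median was 53.0% (56.0% with a peak and 53.0% without). The Foxp1 peak, chr6:99266232-99266494, lay downstream of the internal start at 99266515 and did not cover it. Its summit, at 99266410, was 105 bp downstream of that start. Its fold over control was 2.30 and its q was 0.272, so it was a weak entry of the list.

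Summit density in the 9 genes was close to that of protein-coding genes at large. The 9 gene bodies held 1.85 summits per 100 kb (1.37 to 2.45) over 2645 kb, against 1.71 over all 21631 protein-coding genes and 1.47 over the 2427 protein-coding genes of 100 kb or longer. The 900 kb of flanks held 2.11 per 100 kb (1.27 to 3.30), an interval that overlaps that of the bodies. Without Cux2 the flanks held 1.38 per 100 kb (0.686 to 2.46) and the bodies 1.71 (1.23 to 2.32), so the higher value of the flanks rested on that 1 gene. Inside the gene, 8 of the 9 members held at least 1 summit, Tbr1 being the exception. The share of genes with a summit inside was 36.6% over all protein-coding genes and 88.2% over those of 100 kb or longer. All 6 members of that length held one, and so did Bcl11b and Bcl11a, which are just shorter.

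**Figure D1:**
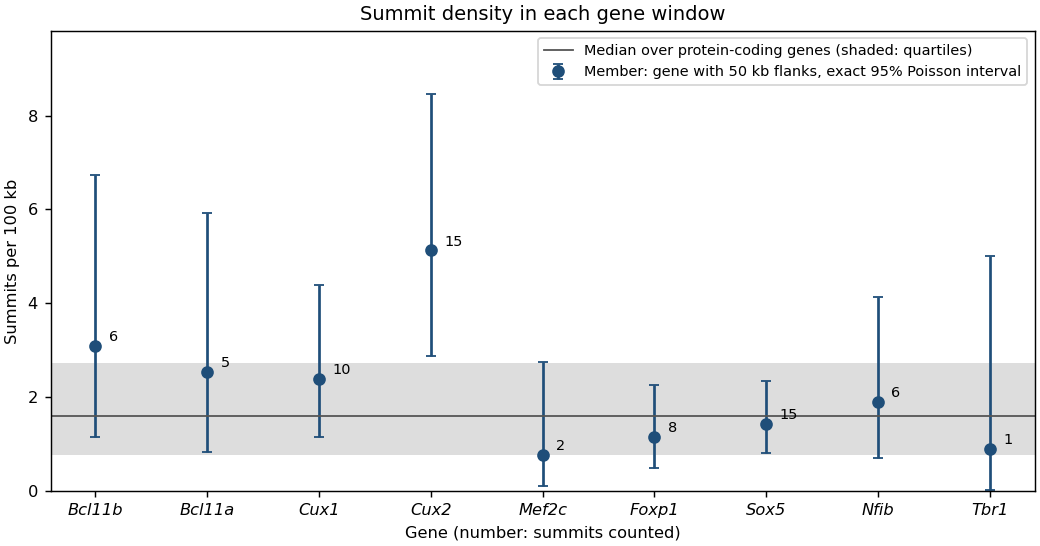
Summits per 100 kb of gene with 50 kb flanks (vertical axis) for each of the 9 genes (horizontal axis), with exact 95% Poisson intervals as bars and the number of summits beside each point; the line and the shading are the median and the quartiles over protein-coding genes, 1.59 and 0.759 to 2.73. Cux2, at 5.13, is the 1 gene whose interval lies wholly above the upper quartile.

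Cux2 had the highest density of the 9 genes with their flanks, 5.13 summits per 100 kb (2.87 to 8.46), which exceeded 95.2% of all protein-coding genes measured the same way. Bcl11b followed with 3.10 (1.14 to 6.74), then Bcl11a with 2.54 (0.824 to 5.92) and Cux1 with 2.38 (1.14 to 4.38). Nfib had 1.90 (0.696 to 4.13), Sox5 1.42 (0.797 to 2.35) and Foxp1 1.15 (0.495 to 2.26). Tbr1, with 0.899 (0.0228 to 5.01), and Mef2c, with 0.760 (0.0921 to 2.75), were lowest. The interval of every gene in this order overlapped that of its neighbours, and the interval of Cux2 did not overlap those of Sox5, Foxp1 or Mef2c. The median of the 9 was 1.90 against 1.59 over protein-coding genes (quartiles 0.759 and 2.73), and 5 of the 9 lay above that median. Neighbouring genes share flanks, so over all genes a summit can count more than once.

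Of the 68 summits, 18 (26.5%, Wilson 95% interval 17.4 to 38.0%) had a q of 0.05 or less, the authors' adjusted p-value for a peak. Over the whole list the share was 23.4%, inside the interval of the members. At a q of 0.01 or less it was 4 of the 68 (5.88%) against 3.51%, and at 0.1 or less 24 (35.3%) against 40.7%. The members thus stood above the list at the stricter limits and below it at the looser one. Of the 4 summits at the strictest limit, those at 121831685, 121853820 and 121912159 were in the Cux2 window. Only that at 108026873, upstream of Bcl11b, was not, so the higher share there rested mostly on Cux2. Without Cux2 the share at 0.05 or less was 24.5%. Fold over control at the member summits ran from 1.85 to 3.98 with a median of 2.70 (quartiles 2.42 and 3.11), and that of the list had a median of 2.77 (quartiles 2.49 and 2.94). The folds of the members were thus those of ordinary entries of the list, whose highest fold was 49.6.

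Many folds were identical between summits. Fold and p of each member summit were met by exactly 1 whole-number pileup, between 11 and 22 fragments with a median of 15. At 55 of the 68 summits the control level was 4.78, the lowest among the 68, and at the other 13 it was higher, up to 7.11. A fold of 3.11 with a q of 0.039 stands for 17 fragments over that lowest control level, and 11 member summits shared it. A step of 1 fragment there moved q from 0.0675 at 16 to 0.039 at 17, so the limit of 0.05 separates summits that differ by 1 fragment.

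**Figure D2:**
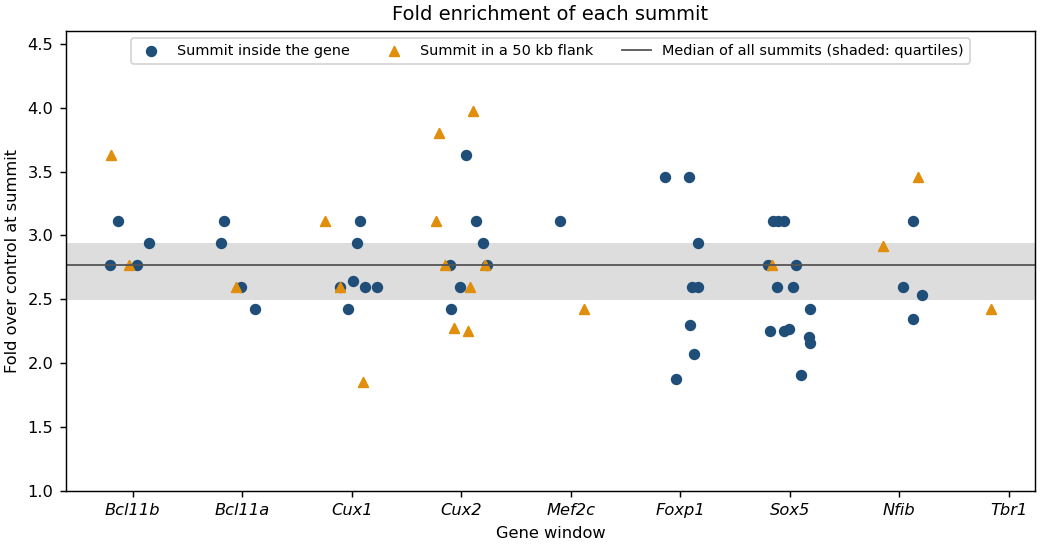
Fold over control at the summit (vertical axis) for each of the 68 summits by gene window (horizontal axis, points spread sideways so that they do not hide each other); circles lie inside the gene, triangles in a flank, and the line and shading give the median of all summits, 2.77, and their quartiles, 2.49 and 2.94. The summits with the highest 2 folds, 3.98 and 3.80, are both in the flanks of Cux2.

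Cux2 encodes a cut-homeodomain factor of upper-layer neurons that shapes dendrites and spines. Its span, chr5:121857962-122050415, is 192 kb on the minus strand and held 7 summits, or 3.64 per 100 kb (1.46 to 7.49), more than 94.1% of the protein-coding genes of 100 kb or longer. A further 8 summits lay in its flanks, 5 beyond the 3′ end and 3 upstream of the 5′ end. The strongest summit of the 9 genes, at 121831685, had a fold of 3.98, a q of 0.000497 and 22 fragments in an interval at chr5:121831460-121831845. It lay 26.3 kb beyond the 3′ end of Cux2 inside Sh2b3, an adaptor protein of cytokine receptor signalling. A weaker summit stood 798 bp away at 121832483, with a fold of 2.28 and a q of 0.244. Another summit in Sh2b3, at 121824392 (chr5:121824152-121824632), had a fold of 3.11 and a q of 0.039.

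The second strongest summit was also on that side of Cux2, at 121853820 (chr5:121853604-121854005). It had a fold of 3.80, a q of 0.00162 and 21 fragments, 4.14 kb beyond the 3′ end inside Pheta1, a gene for a protein of endosomal traffic. Between Pheta1 and Cux2, at 121855101, stood a summit of fold 2.59 and q 0.177. The 2 flank peaks of highest fold thus lay within the spans of neighbouring genes and not of Cux2. Inside Cux2, the strongest summit was at 121912159 (chr5:121911973-121912333), with a fold of 3.63, a q of 0.00437 and 20 fragments. A second, at 121956245, had a fold of 3.11 and a q of 0.039 in the widest interval of the 68, 549 bp at chr5:121955994-121956542.

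The summits of Cux2 were unevenly placed. The first 94.2 kb from its 5′ end held none, and all 7 lay between 94.2 and 181 kb from that end. With the flank, the stretch without a summit ran over 122 kb, from 121956245 to 122077831. The 5 other summits in the gene had folds from 2.42 to 2.94 and q from 0.0675 to 0.272. Upstream of the gene, the 3 summits lay 27.4, 33.5 and 42.5 kb from the 5′ end with folds of 2.77, 2.77 and 2.25. The farthest was inside Myl2, a myosin light chain gene named here after its values were seen. Its peak, chr5:122092624-122092948, covered a tabulated start of Myl2 at 122092724, and the summit was 184 bp downstream of that start. Peaks of 400 bp or wider made up 6 of the 68 (8.82%), against 3.17% of the list, and 4 of these 6 were in the window of Cux2.

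Cux1, the paralogue of Cux2 in upper layers, is longer, 320 kb on the minus strand at chr5:136248135-136567590, and held 7 summits inside and 3 beyond its 3′ end. Inside the gene the density was 2.19 per 100 kb (0.881 to 4.52), and its interval overlapped that of Cux2. The strongest summits had a fold of 3.11 and a q of 0.039. One, at 136540855 (chr5:136540782-136540972), lay 26.7 kb from the 5′ end, and the other, at 136237260 (chr5:136237203-136237442), lay 10.9 kb beyond the 3′ end in Sh2b2, an adaptor of receptor tyrosine kinase signalling. The 6 other summits inside Cux1 had folds from 2.42 to 2.94, and those left in the flank 2.59 (in Sh2b2) and 1.85. In contrast to Cux2, the summits of Cux1 were spread along the gene, from 26.7 to 292 kb from its 5′ end. The Cux1 and Cux2 windows each had members of the Sh2b family as neighbours, and 5 of the 19 flank summits were in those neighbours.

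**Figure D3:**
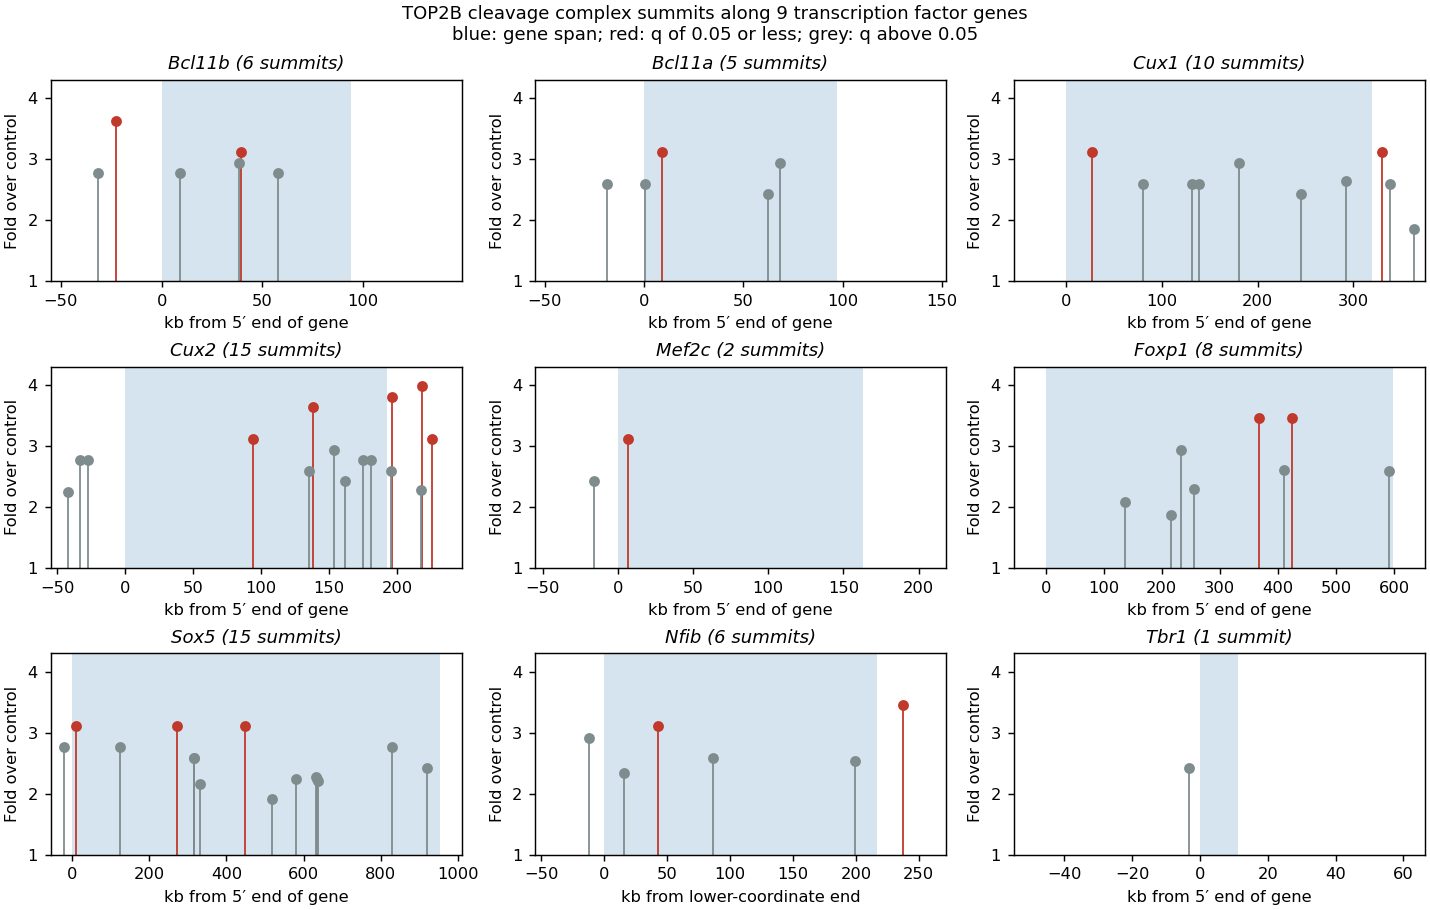
Fold over control (vertical axis, from 1) at each summit along the 9 genes, placed by distance in kb from the 5′ end of the gene, or from the lower-coordinate end for Nfib (horizontal axis); shading is the gene, and red marks a q of 0.05 or less. The summits of Cux2 gather in its 3′ part and beyond its 3′ end, those of Cux1 and Sox5 are spread along the gene, and the first 137 kb of Foxp1 are empty.

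Bcl11b encodes the zinc-finger factor CTIP2, which directs subcerebral axon growth. Its 93.7 kb on the minus strand, chr12:107910403-108004145, held 4 summits, 4.27 per 100 kb (1.16 to 10.9), the highest density inside a gene among the 9. The interval is wide because it rests on 4 summits. The strongest of its 6 summits was outside the gene, 22.7 kb upstream of the 5′ end at 108026873 (chr12:108026738-108027000), with a fold of 3.63, a q of 0.00437 and 20 fragments. No listed gene covers that position. Inside the gene, 107964586 (chr12:107964400-107964740) had a fold of 3.11 and a q of 0.039, and a summit 945 bp from it had 2.94 and 0.0675. The 3 others, 2 in the gene and 1 upstream, all had a fold of 2.77 and a q of 0.110.

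Bcl11a, the paralogue known for silencing fetal globin in blood and for neuronal identity in deep layers, had a density near that of Bcl11b. Its span of 97.0 kb on the plus strand, chr11:24076564-24173558, held 4 summits, or 4.12 per 100 kb (1.12 to 10.6), and 1 more lay 18.6 kb upstream. It was the 1 member of 9 with a summit within 1 kb of an end of the gene, where 8.3% of all protein-coding genes have one. That summit, at 24076814 (chr11:24076675-24076864), lay 250 bp inside the span, with a fold of 2.59 and a q of 0.177. The start tabulated for Bcl11a is 3.88 kb further downstream, at 24080695, so the summit was at the 5′ end of the span and not at that start. The strongest Bcl11a summit, at 24085405 (chr11:24085271-24085476), lay 8.84 kb from the 5′ end of the span and 4710 bp after the tabulated start, with a fold of 3.11 and a q of 0.039. The remaining summits had folds of 2.42, 2.59 and 2.94.

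Sox5 encodes a SoxD factor that times the birth and migration of corticofugal neurons, and is the longest of the 9 genes. Its 954 kb on the minus strand, chr6:143828425-144782287, held 14 summits and its upstream flank 1, as many in all as Cux2. Over that length the density was 1.47 per 100 kb (0.802 to 2.46), close to the median of 1.38 over protein-coding genes of 100 kb or longer. The 3 summits of q 0.039 and fold 3.11 were at 144334756 (chr6:144334616-144334836), 144509328 (chr6:144509012-144509456) and 144771452 (chr6:144771321-144771594). The last lay 10.8 kb from the 5′ end. The 11 others inside the gene had folds from 1.91 to 2.77. The closest pair of summits in the 9 windows, 363 bp apart at 144148958 and 144149321, was in Sox5, and another close pair there, at 144466301 and 144466742, shared a fold of 2.59. The 15 summits of Sox5 were thus spread over a much longer gene than the 15 of Cux2.

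Foxp1 encodes a forkhead factor of cortical and striatal projection neurons. Its 597 kb on the minus strand, chr6:98925342-99522746, held 8 summits, 1.34 per 100 kb (0.578 to 2.64), and its flanks none. The first 137 kb from the 5′ end were empty, so the most upstream tabulated start had its nearest summit 135 kb away. The strongest summits, at 99097969 (chr6:99097884-99098087) and 99155508 (chr6:99155366-99155589), both had a fold of 3.46, a q of 0.0102 and 19 fragments. They lay 425 and 367 kb from the 5′ end. The 6 others, that near the internal start included, had folds from 1.88 to 2.94.

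Nfib encodes a nuclear factor I protein needed for deep-layer neurons and for glia of the midline. It spans 217 kb, chr4:82290173-82506751, and held 4 summits inside, 1.85 per 100 kb (0.503 to 4.73), and 1 in each flank. Its strand was not used, so positions are given from the end of lower coordinate. The strongest summit, at 82527232 (chr4:82527131-82527367), lay 20.5 kb beyond the upper end in the noncoding gene Gm11266, with a fold of 3.46, a q of 0.0102 and 19 fragments. Inside Nfib, 82332668 (chr4:82332587-82332796) had a fold of 3.11 and a q of 0.039. The other flank summit, with 17 fragments over a control level of 5.17, had a fold of 2.92 and a q of 0.0542. It missed the limit of 0.05 with as many fragments as summits that passed it over the lowest control level.

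Mef2c and Tbr1 had the fewest summits. Mef2c, a MADS-box factor that regulates synapse number with activity, spans 163 kb on the plus strand, chr13:83504017-83667079, and held 1 summit, 0.613 per 100 kb (0.0155 to 3.42). Of protein-coding genes of 100 kb or longer, 18.8% had a lower density. That summit, at 83510534 (chr13:83510456-83510683), lay 6.52 kb from the 5′ end with a fold of 3.11 and a q of 0.039. A weaker one stood 15.96 kb upstream, with a fold of 2.42 and a q of 0.272. Tbr1, a T-box factor, spans 11.2 kb on the plus strand, chr2:61802863-61814114, and held none. At this length the count of 0 allows a density of up to 32.8 per 100 kb, so a lower density than in the other genes was not detectable. Its 1 summit, at 61799607 (chr2:61799508-61799697), lay 3.26 kb upstream of the 5′ end inside Psmd14, a proteasome subunit gene named here after its values were seen, with a fold of 2.42 and a q of 0.272.

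Along the gene, the summits showed no shared place. The 8 members with a strand held 45 summits inside the gene. With each gene divided into 4 equal lengths from its 5′ end, these lengths held 8, 14, 14 and 9 summits. Of the 62 summits in windows of genes with a tabulated start, 1 lay within 1 kb of one (the Foxp1 summit), 4 within 5 kb and 7 within 10 kb. The shares of all summits at these distances were not computed, so whether the counts are high or low is unknown. The start tabulated for Sox5, at 143947106, is not at the 5′ end of the gene, at 144782287. The Sox5 summit at 143953431, counted within 10 kb, lay 829 kb from that end. The one at 144771452 lay 10.8 kb from it and was not counted. Inside the gene, the summits of q 0.05 or less nearest the 5′ end stood at 6.52 kb in Mef2c, 8.84 kb in Bcl11a, 10.8 kb in Sox5 and 26.7 kb in Cux1. The others in genes with a strand lay farther in, at 39.6 kb in Bcl11b and 94.2 and 138 kb in Cux2. In Sox5 they lay at 273 and 447.5 kb, and in Foxp1 at 367 and 425 kb. Of the 49 summits inside the members, 7 also lay in another listed gene. Among them were that of Foxp1 at 99097969, in Gm19665, and those of Cux2 at 121869304, 121875233 and 121888653, in the noncoding gene Gm52785. Of the 19 flank summits, 8 were in another protein-coding gene, 3 in other listed genes and 8 outside listed genes. The matching shares over all summits were not computed. Of the 6 flank summits of q 0.05 or less, 4 were in Sh2b2, Sh2b3 or Pheta1. Exon, intron and UTR classes were not analysed here.

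Neighbouring summits of 1 window were a median of 26.8 kb apart over 59 pairs, and 7 pairs (11.9%) were within 5 kb. Over the whole list these values were 41.4 kb and 9.20%. The limit of 50 kb removes long distances from the pairs in the windows, so neither value is compared with that of the list. Near the limit, the outermost summits counted were at 44.3 kb from Cux1 (fold 1.85, q 0.575) and 42.5 kb from Cux2 (2.25, 0.405). The nearest ones not counted were at 50.6 kb from Bcl11a (3.24, 0.0173) and 60.5 kb from Nfib (2.94, 0.0675).

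The other genes of the same families gave densities near those of the members. The 13 paralogues held 37 summits inside the genes, 1.75 per 100 kb (1.23 to 2.41). At least 1 was held by 10 of 13 (76.9%), beside 36.6% of all protein-coding genes. Sox6, a second SoxD gene, had 11 summits at 1.93 per 100 kb (0.964 to 3.45) beside 1.47 in Sox5. Nfia had 10 at 1.85 (0.887 to 3.40), beside 1.85 in Nfib. Foxp2, a forkhead gene of speech circuits, had 4 at 0.740 (0.202 to 1.89) beside 1.34 in Foxp1. The interval of each paralogue here included the value of the member of its family. Foxp2 differed from Foxp1 in having a summit near an end, at 14901913, with a fold of 3.63 and a q of 0.00437.

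**Figure D4:**
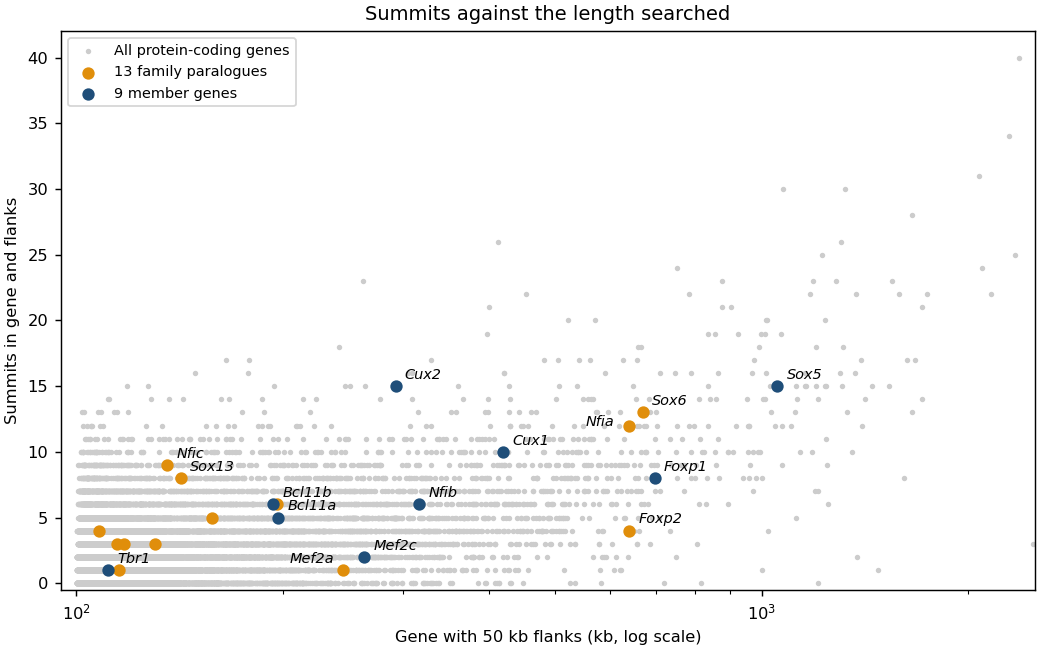
Number of summits in gene and flanks (vertical axis) against the length of gene and flanks in kb (horizontal axis, log scale) for all protein-coding genes in grey, 13 family paralogues in orange and the 9 members in blue. Sox5 reaches its 15 summits over a long span, whereas Cux2 reaches 15 over a span shorter than those of Cux1, Nfib and Foxp1.

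In other factors of projection neurons, 12 of 28 genes (42.9%) held a summit inside, beside 36.6% of all protein-coding genes. They held 41 in all, or 1.39 per 100 kb (0.998 to 1.89). Tshz2 and Myt1l had 7 each and Zfpm2, which encodes a cofactor of GATA proteins, had 6. Myt1l, a repressor of non-neuronal genes, had a summit near an end, at 29923936, with a fold of 3.46 and a q of 0.0102. In interneuron factors 2 of 15 genes (13.3%) held a summit, Prox1 with 2 and Dlx6 with 1, in all 1.24 per 100 kb (0.256 to 3.62). In progenitor factors 3 of 13 genes (23.1%) held a summit, Pax6, Neurog1 and Gli3 with 1 each, in all 0.862 per 100 kb (0.178 to 2.52). That of Neurog1 was near an end, at 56251721, with a fold of 3.11 and a q of 0.039. Myt1l was the 1 gene of 28 and Neurog1 the 1 of 13 with a summit within 1 kb of an end. The share over all protein-coding genes was 8.3%. The intervals of all these lists overlapped that of the 9 members. The lists also differ in length, with a median gene of 192 kb in the members, 42.2 kb in the paralogues, 13.2 kb in the other projection neuron factors, 4.97 kb in the interneuron factors and 5.55 kb in the progenitor factors, so the shares of genes with a summit compare genes of unlike length.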

How the data were processed

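The values come from 1 peak list in narrowPeak layout without a header, which the authors deposited for the whole series. The submitters' processing notes name FastQC, Trimmomatic, BWA, SAMtools and MACS2, without versions, and builds mm10 and GRCm38.p6. How duplicates were treated and which libraries entered the pool is not given in the sources used here, so replicates could not be compared. Fold over control is the ratio deposited by the authors. The deposited −log10 p and −log10 q were turned into p-values and q-values. Of 35539 entries, those on the 20 chromosomes were used.

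Summits were set against gene spans of a RefSeq table of GRCm38.p6. Pileup and control level were solved from fold, after adding 1 to both pileup and control, and a Poisson tail, within 0.002 of −log10 p. Counts were checked on simulated data. The members and lists were chosen with earlier results of these data known. Named were all members, their summits of q 0.05 or less, those within 1 kb of an end and the strongest of each, up to 3 genes per list with most summits inside and those with an end summit of q 0.05 or less, and flanking protein-coding genes holding a member summit of q 0.05 or less. Python 3.11.15, numpy 2.4.6, pandas 2.3.3, scipy 1.17.1 and matplotlib 3.10.9 were used.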

Additional observations from a re-analysis of the deposited data

How the results depend on the processing

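Of 26 alternative settings over 7 results, 21 left the value within 1.5 times (counts and distances) or within the interval or quartiles (other values) of that reported, and 5 did not. With peaks of q 0.05 or less the gene bodies held 0.454 summits per 100 kb (0.340 over protein-coding genes of 100 kb or longer). With peaks at or above the list's median fold they held 0.870, and the matching value over long genes was not computed. Both filters drop peaks and so can only lower a density, in any set of genes. With ends widened to 5 kb, 3 genes had an end summit, Bcl11a and, by summits outside the span, Cux2 and Tbr1. The share of all protein-coding genes at 5 kb was not computed, and that of 8.3% is for 1 kb. At q of 0.01 or less the share of member summits was 5.88%. Without flanks the median distance between neighbouring summits was 41.5 kb. Leaving out Cux2, an alternative chosen after seeing the data, brought the flank density from 2.11 to 1.38 per 100 kb. Leaving out Sox5, also chosen after seeing the data, gave 28.3% of summits at q of 0.05 or less. No paired analysis was possible because the list is pooled over libraries, and for the same reason no replicate could be left out. Depth per library is unknown.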
